A study of Rattus norvegicus with 12 samples.

Results

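Neonatal rat cardiac fibroblasts that had received siRNA against Wwtr1 (the gene of the coactivator Taz) were compared with cells that had received negative siRNA, by RNA sequencing. The comparison used 6 of the 12 libraries of the series, 3 per group, and every gene whose mean over the 12 libraries was 10 normalized counts or more, which left 11871 of 12271 listed genes. Genes of the interferon response were set aside by a list of symbols and symbol prefixes, so that 11715 of the tested genes remained. The question was which genes depend on Wwtr1 alone.

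The cells, primary fibroblasts that build the matrix of the heart, came from heart ventricles of Sprague Dawley pups at postnatal day 2 and grew with 15% fetal bovine serum. Each target was depleted with a pair of siRNAs at 25 nM each, and RNA was collected at 48 hours. The study's methods differ here. They give a lower percentage of serum and count the 48 hours from a change of medium after transfection. The negative siRNA libraries received Universal Negative Control siRNAs #1 and #2. The other groups received siRNA against Yap, or against both Yap and Wwtr1, although the siRNA label of the double knockdown lists only the Wwtr1 reagents. Per the methods, replicates of a group came from separate litters. The design text of the series names myocytes, whereas its title and sample labels name fibroblasts. Because both Wwtr1 siRNAs went into the same cells, effects of a single siRNA off its target could not be told apart from effects of Wwtr1.

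Taz and the related protein Yap are coactivators that bind no DNA themselves. They are kept out of the nucleus by the kinases of the Hippo pathway and, once nuclear, act mainly through Tead transcription factors at genes for matrix, cytoskeleton and growth. In heart fibroblasts they are best known from the conversion of fibroblasts into myofibroblasts after injury.

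The compared libraries held 34.2 to 36.3 M recovered reads, so depth was even. Fibroblast markers were the most abundant of the cell type lists, with summed levels of 2989770 to 3467470 normalized counts with negative siRNA and 2953380 to 3190900 with Wwtr1 siRNA. Cardiomyocyte markers summed to 46589 to 82989 and 50834 to 94538 normalized counts. Macrophage markers summed to 28315 to 40398 with negative siRNA and 15312 to 24658 with Wwtr1 siRNA, groups that did not overlap. In bulk RNA, fewer cells of a type and less RNA per cell cannot be told apart. Throughout, a gene is called when its limma adjusted p is under 0.05 over all genes tested. Fold changes are differences of log2(normalized count + 1), a scale that makes the change of low genes look smaller than it is. The fit was repeated 12 times with 1 library of the series left out, and where a call was then lost, the library is named with the adjusted p without it.

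The targeted gene was examined first. Wwtr1 was at 2364, 2565 and 2280.0 normalized counts in negative siRNA replicates 1, 2 and 3 and at 524, 550.0 and 637 with Wwtr1 siRNA. All 3 treated libraries lay far below the controls, and the mean fell by 76.3% (log2 fold change -2.08, SE 0.13, limma adjusted p 2.33e-05). Yap1, the gene of the paralog Yap, was at 3042, 3776 and 2984 normalized counts with negative siRNA and 3169, 3151 and 3184 with Wwtr1 siRNA. Its groups overlapped, and its log2 fold change of -0.04 had a 95% interval of -0.51 to 0.44 (limma adjusted p 0.944). With Yap siRNA, Wwtr1 was at 2134, 2499.5 and 2374 normalized counts. Replicate 1 lay under the range of negative siRNA and the other two within it.

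**Figure D1:**
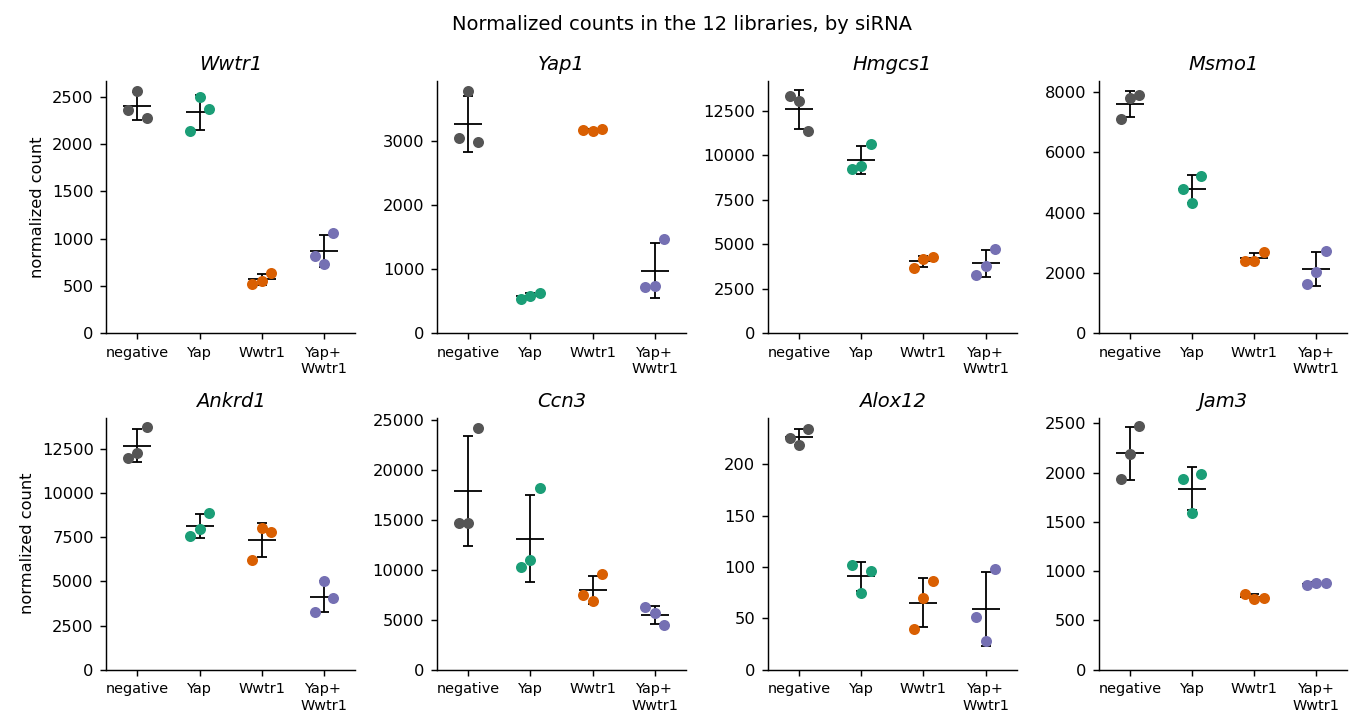
Normalized counts (linear axis from 0) of 8 genes in the 12 libraries, grouped by siRNA. Points are libraries and bars the mean and SD of 3. Wwtr1, Hmgcs1, Msmo1, Ankrd1, Ccn3, Alox12 and Jam3 sit under every control in all 3 Wwtr1 siRNA libraries, and Yap1 does not.

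Wwtr1 siRNA changed 1064 of the 11871 tested genes (8.96%), of which 594 were higher (5.0%) and 470 lower (3.96%). At an unadjusted p under 0.05 there were 2834. The interferon list held 92 of the higher genes and 2 of the lower ones, among 156 tested members. Its members in the 3 Wwtr1 siRNA libraries summed to 679116, 528810 and 328171 normalized counts, against 211584 to 257017 with negative siRNA, so replicate 1 was highest and replicate 3 lowest. The 2 lower members were Stat3 (log2 fold change -0.22, limma adjusted p 0.0421) and Ifngr1 (-0.37, limma adjusted p 0.0176). The call of Ifngr1 was lost without negative siRNA replicate 2 or 3 or Wwtr1 siRNA replicate 1 or 2 (limma adjusted p 0.0622 to 0.0801) and that of Stat3 in 7 of the 12 fits. Outside the interferon list 970 genes were called, 502 higher and 468 lower. Most changes were moderate, with a median absolute log2 fold change of 0.54. Above a 2-fold change there were 110 higher and 34 lower genes, and above 4-fold 29 higher and 3 lower. The 3 were Wwtr1 itself and Mctp2 and Nr0b2, which were scarce, with means over the 12 libraries of 22.5 and 16.9 normalized counts and calls lost in 10 and 11 of the 12 fits. In each of the 1064 called genes the 3 Wwtr1 siRNA libraries lay wholly above or wholly below the 3 controls, as they did in 32.7% of all tested genes. The counts moved with single libraries. Without negative siRNA replicate 2 or 3, 695 and 563 genes were called, and without Wwtr1 siRNA replicate 1 or 2, 567 and 548 (outside the interferon list 615, 497, 504 and 484). With the replicate number as a block 1322 genes were called over all libraries. With the double knockdown left out as well the block called 2527 genes, 2404 of them outside the interferon list. Of all tested genes 11% were then higher and 10.3% lower, and these shares are the background of every count with the block.

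**Figure D2:**
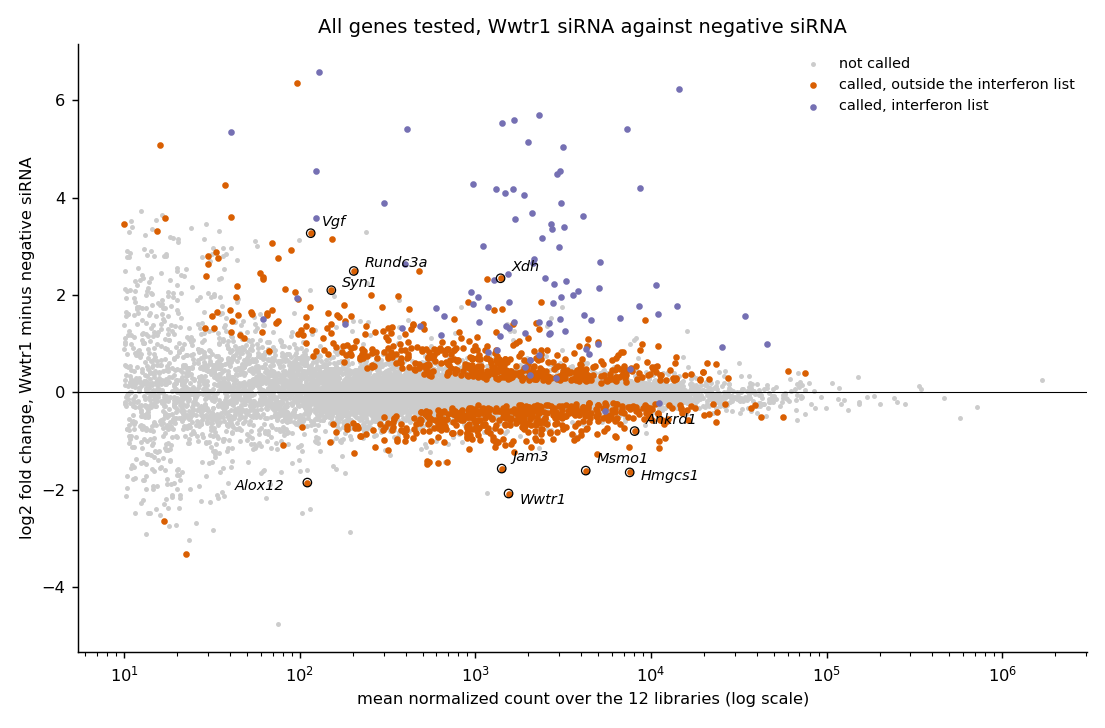
Log2 fold change of Wwtr1 against negative siRNA for the 11871 genes tested, against their mean normalized count over the 12 libraries (log axis). Purple points are called members of the interferon list and orange points the 970 other called genes. Large rises outside the interferon list lie mostly at low counts, and Hmgcs1, Msmo1 and Jam3 stand among the abundant genes that fell furthest.

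Genes of cholesterol synthesis fell together. Of the 21 genes that encode the enzymes from acetyl-CoA to cholesterol, 19 were lower with Wwtr1 siRNA and none was higher, against 3.96% lower among all tested genes. The list had a median log2 fold change of -0.87, against 0.0047 over all tested genes. Transcription of this pathway is driven by the factor SREBP-2, which is released from the endoplasmic reticulum when membrane sterol is low and acts at promoters together with NF-Y, the factor that binds CCAAT boxes.

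Promoters of 16 of the 21 genes were found in the RefSeq promoter table of build GRCr8, as 250 bases before and 50 after the annotated start. The letters CCAAT, searched on both strands, occurred in 13 of the 16 (81.2%), against 37.5% of all 33469 promoters of the table. The SREBP motif TCACNCCAC, also searched on both strands, had no match in the 16 windows and was present in 1.12% of all promoters. Letters this rare would mostly be missing from 16 windows of any genes, so their absence here is not informative. The Tead motif GGAATG had no match in the 16 windows either, against 14.2% of all promoters. For 4 lower genes from different steps of the pathway that hold the box, the 200 bases before the start are shown 5′ to 3′ on the strand of the gene, with CCAAT or its reverse complement ATTGG in capitals. They lie at chr2:53382104-53382303 (plus strand), chr16:29746913-29747112 (plus strand), chr19:67414975-67415174 (minus strand) and chr2:176804817-176805016 (minus strand).
Hmgcs1: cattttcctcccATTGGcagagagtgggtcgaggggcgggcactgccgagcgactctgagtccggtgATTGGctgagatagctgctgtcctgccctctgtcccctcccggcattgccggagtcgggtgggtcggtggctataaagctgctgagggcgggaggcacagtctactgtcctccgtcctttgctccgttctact
Msmo1: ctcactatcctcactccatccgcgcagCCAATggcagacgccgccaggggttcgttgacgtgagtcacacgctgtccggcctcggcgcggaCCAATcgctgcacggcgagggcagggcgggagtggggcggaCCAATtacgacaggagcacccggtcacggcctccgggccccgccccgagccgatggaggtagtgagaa
Mvd: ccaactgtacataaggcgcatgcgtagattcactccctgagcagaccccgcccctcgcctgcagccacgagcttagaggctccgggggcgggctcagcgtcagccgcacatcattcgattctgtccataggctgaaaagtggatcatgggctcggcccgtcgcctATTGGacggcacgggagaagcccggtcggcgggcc
Fdps: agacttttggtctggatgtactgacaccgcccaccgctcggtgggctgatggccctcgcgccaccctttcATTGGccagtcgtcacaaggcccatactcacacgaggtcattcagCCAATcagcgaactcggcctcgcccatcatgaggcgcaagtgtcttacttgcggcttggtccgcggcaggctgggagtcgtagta
Msmo1 held 3 CCAAT boxes in this stretch, Hmgcs1 and Fdps 2 each and Mvd 1. A match is a description of the letters only.

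Among the sterol synthesis genes the largest fall was that of Hmgcs1, which encodes the cytosolic HMG-CoA synthase at the entry of the pathway. Hmgcs1 was at 13291, 13066 and 11326 normalized counts with negative siRNA and 3638, 4173 and 4249.6 with Wwtr1 siRNA. The groups were far apart, and the mean fell by 68% (log2 fold change -1.64, SE 0.12, limma adjusted p 7.38e-05). Acat2, which makes the acetoacetyl-CoA that Hmgcs1 uses, went from 2226, 2022 and 1913 to 859.8, 975 and 977 normalized counts (log2 fold change -1.13, SE 0.12, limma adjusted p 0.000515). In both genes every treated library lay under every control.

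From mevalonate onward the next steps attach phosphate and form the isoprenoid units. Mvk was at 1836, 1642 and 1640.3 normalized counts with negative siRNA and 1247, 1133 and 1231 with Wwtr1 siRNA (log2 fold change -0.50, SE 0.09, limma adjusted p 0.00596). Mvd, the decarboxylase that yields isopentenyl pyrophosphate, went from 2349, 2235 and 2372 to 978, 1144 and 1229.6 (log2 fold change -1.06, SE 0.09, limma adjusted p 9.26e-05). Both genes were separated from the controls in every library. Pmvk, the kinase between them, was at 693, 576 and 644 and 463, 543 and 548 and was not called (log2 fold change -0.30, limma adjusted p 0.169). Idi1, the isomerase, fell from 3500.2, 3353 and 3210.2 to 1291, 1783 and 1584 normalized counts (log2 fold change -1.12, SE 0.15, limma adjusted p 0.00107). Fdps, which joins the units to farnesyl pyrophosphate, fell from 17922, 16398 and 17683 to 8213, 8851 and 8858 (log2 fold change -1.0, SE 0.08, limma adjusted p 9.26e-05). Farnesyl pyrophosphate is the branch point from which sterols, ubiquinone and prenyl groups of proteins are made. Ggps1, which leads away from sterols towards geranylgeranyl groups, was at 560.3, 589.8 and 587 and 556, 620.5 and 574 normalized counts and was the other member not called (log2 fold change 0.01, limma adjusted p 0.962). Pmvk and Ggps1 are given here as the exceptions of the list.

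Each tested gene of the steps that commit to sterol was lower. Fdft1, squalene synthase, went from 5896, 5824 and 5779.7 to 2787, 3525 and 3339 normalized counts (log2 fold change -0.87, SE 0.09, limma adjusted p 0.000311). Sqle, squalene epoxidase, went from 5726, 5429.7 and 5103 to 2658, 3026 and 2532 (log2 fold change -0.99, SE 0.12, limma adjusted p 0.000719). Lss, which closes the rings to lanosterol, went from 4028, 4376 and 3894 to 2407, 2383 and 2228 (log2 fold change -0.81, SE 0.07, limma adjusted p 0.000131). For each of these genes the highest Wwtr1 siRNA library stayed under the lowest control. Among the enzymes that convert lanosterol to cholesterol, Msmo1, a sterol methyl oxidase, was lowest relative to the controls, at 7095, 7809 and 7901 with negative siRNA and 2403, 2402 and 2686 with Wwtr1 siRNA (log2 fold change -1.61, SE 0.15, limma adjusted p 0.000158). Tm7sf2, a sterol reductase, went from 977, 862 and 786 to 301, 350.0 and 324 (log2 fold change -1.42, SE 0.22, limma adjusted p 0.0023). Smaller falls were those of Dhcr7 (-0.97 on the log2 scale), Cyp51 (-0.93), Hsd17b7 (-0.83), Sc5d (-0.80), Nsdhl (-0.75) and Ebp (-0.60), each with a limma adjusted p between 9.26e-05 and 0.00687.

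**Figure D3:**
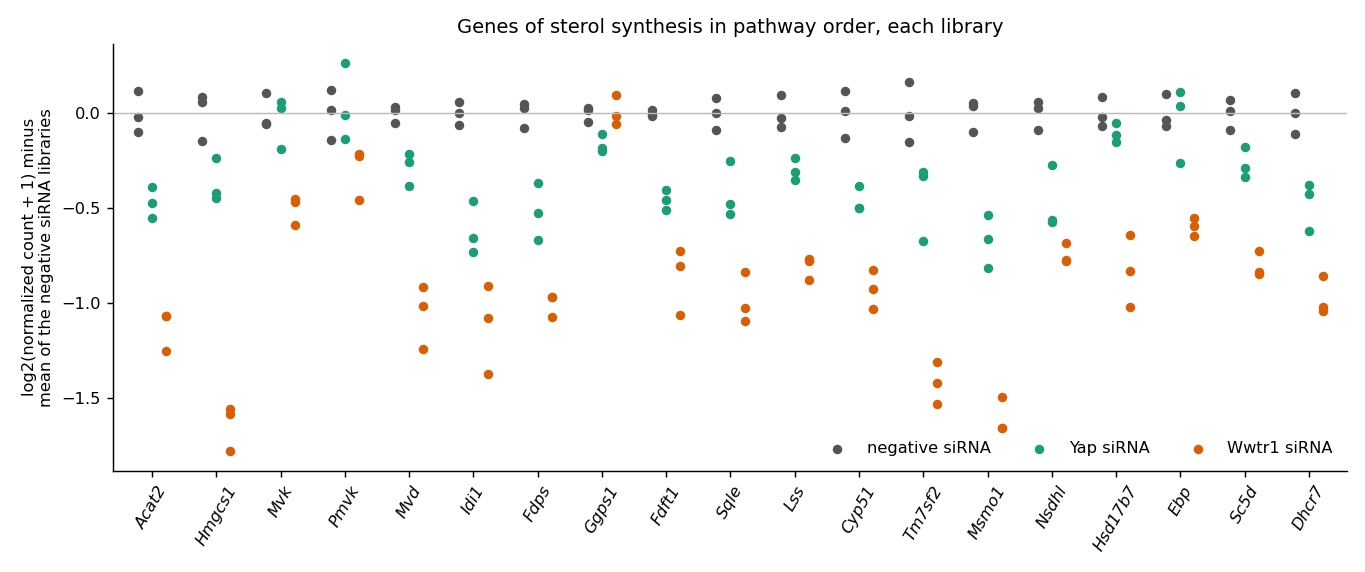
Each library's log2(normalized count + 1) minus the mean of the negative siRNA libraries, for 19 sterol synthesis genes in pathway order. Points are libraries of negative (grey), Yap (green) and Wwtr1 siRNA (orange). Only Ggps1 has Wwtr1 siRNA libraries among the controls, and Yap siRNA libraries lie between the other groups for most genes.

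The sterol genes were lower with Wwtr1 siRNA than with Yap siRNA as well. In the direct contrast of both groups, 15 of the 21 were lower with Wwtr1 siRNA and none was higher, against 4.57% lower among all tested genes, with a median difference of -0.51 on the log2 scale. With Yap siRNA Hmgcs1 was at 9205, 9378 and 10634, a difference of -1.28 (SE 0.12, limma adjusted p 0.000321). Against negative siRNA, 8 members were lower with Yap siRNA (median -0.37), where 1.78% of all tested genes were lower. In the double knockdown 20 members were lower (median -1.14), where 15.6% of all tested genes were. The comparisons against negative siRNA share its libraries, and the direct contrast shares the Wwtr1 siRNA libraries with the main comparison. So they are not independent of each other.

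Of 14 genes of sterol regulation and uptake 3 were lower, 1 was higher and 10 were not called, so that 28.6% were called against 8.96% of all tested genes. The list median was -0.08, with 7 members below and 7 above 0. Srebf2, the gene of SREBP-2, was at 8247, 8201 and 8015 normalized counts with negative siRNA and 4004, 4713 and 4401 with Wwtr1 siRNA (log2 fold change -0.90, SE 0.09, limma adjusted p 0.000191). Its level lay in a narrow range within each group, and it was also lower than with Yap siRNA, by -0.75 on the log2 scale (limma adjusted p 0.000758). Insig1, which retains SREBP in the endoplasmic reticulum and is itself an SREBP target, went from 11009.7, 9073 and 8020.4 to 6127, 5826 and 4876 (log2 fold change -0.73, SE 0.13, limma adjusted p 0.00596). Stard4, a carrier of cholesterol within the cell, went from 595, 643 and 506 to 355, 250 and 309 (log2 fold change -0.94, SE 0.18, limma adjusted p 0.00687). Scap, the escort of SREBP to the Golgi, was the higher member, from 3737, 3835 and 3612 to 4842, 4746 and 4806 (log2 fold change 0.36, SE 0.07, limma adjusted p 0.00658).

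Fatty acid synthesis is controlled largely by the related factor SREBP-1. Of its 18 tested genes 5 were lower (27.8%, against 3.96% of all tested genes) and none higher, with a median log2 fold change of -0.25. Aacs, which activates acetoacetate for lipid synthesis, fell from 3033, 2478 and 2533 to 1148, 1154 and 1143 normalized counts (log2 fold change -1.22, SE 0.10, limma adjusted p 9.26e-05). Scd, the stearoyl-CoA desaturase, fell from 4604, 3809 and 3391 to 1975, 2100.2 and 1783 (log2 fold change -1.0, SE 0.20, limma adjusted p 0.00989). Fasn, fatty acid synthase, fell from 20498, 22119.6 and 20392 to 12999, 14647 and 14714 (log2 fold change -0.57, SE 0.09, limma adjusted p 0.00292). In all 3 genes the groups were fully apart. Elovl6, an elongase, and Acly, which supplies cytosolic acetyl-CoA, changed by -0.54 and -0.49 on the log2 scale (limma adjusted p 0.0122 and 0.0023), and the call of Elovl6 was lost without negative siRNA replicate 2 or Wwtr1 siRNA replicate 1 (limma adjusted p 0.051 to 0.0554). Among 12 genes of cholesterol efflux and its receptor LXR, 3 were higher, against 5.0% of all tested genes. They were Lpl, lipoprotein lipase (0.87 on the log2 scale, limma adjusted p 0.0478), Abcg4, a sterol transporter (0.82, limma adjusted p 0.0138), and Arl4c (0.68, limma adjusted p 0.047). The call of Abcg4 was lost without Wwtr1 siRNA replicate 2 or 3 (limma adjusted p 0.0537 to 0.0642), and those of Lpl and Arl4c in 9 and 8 of the 12 fits (limma adjusted p up to 0.173), among them the fits without each of the controls.

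**Figure D4:**
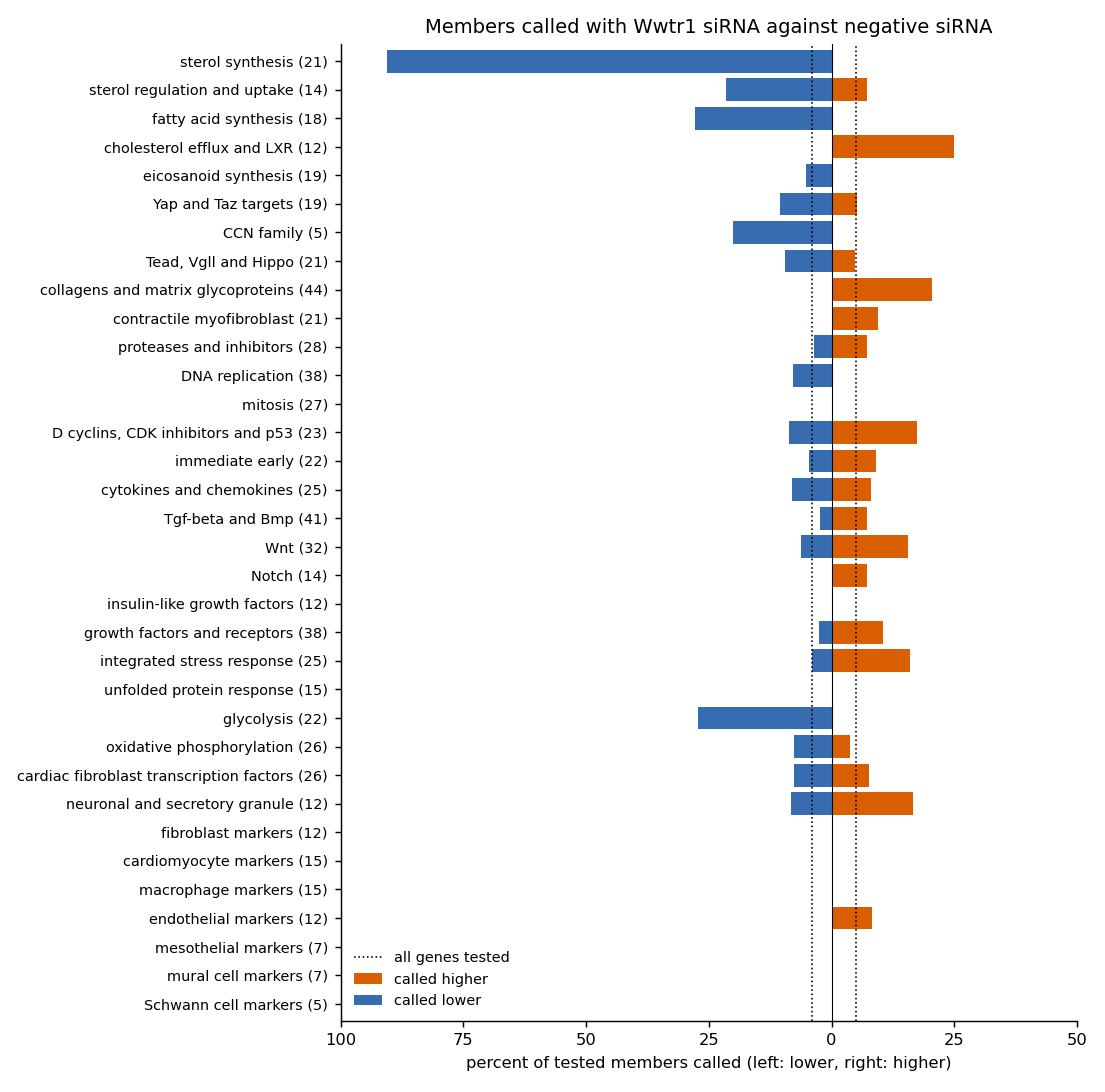
Percent of the tested members of each gene list called lower (blue, to the left) or higher (orange, to the right) with Wwtr1 siRNA against negative siRNA, with the number of tested members in brackets. Dotted lines give the share over all genes tested, 3.96% lower and 5.0% higher. Sterol synthesis stands out to the left, and collagens and matrix glycoproteins have higher members only.

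Known targets of Yap and Taz were taken next. Of 19 tested targets 2 were lower and 1 was higher, so that 15.8% were called against 8.96% of all tested genes, and the median log2 fold change was -0.31. With Yap siRNA 8 targets were lower and none higher (median -0.47), where 1.78% of all tested genes were lower. Ankrd1, a nuclear ankyrin repeat protein of stressed heart muscle and a standard reporter of Yap activity, was at 12000.0, 12265 and 13737 normalized counts with negative siRNA and 6223, 8002 and 7773 with Wwtr1 siRNA. The groups did not overlap and the mean fell by 42.1% (log2 fold change -0.79, SE 0.14, limma adjusted p 0.0053). With Yap siRNA Ankrd1 was at 7596, 7939 and 8876 and was called lower too (log2 fold change -0.64, limma adjusted p 0.0293). The difference between both siRNAs was not called (log2 difference -0.16, limma adjusted p 0.549). Nt5e, the ectonucleotidase CD73, went from 1177, 984 and 870.3 to 521, 717 and 565 (log2 fold change -0.75, SE 0.15, limma adjusted p 0.00941). It was not called with Yap siRNA (1141, 1156 and 1114 normalized counts) and differed between both siRNAs by -0.93 on the log2 scale (limma adjusted p 0.00417). Gadd45a, a stress-induced growth arrest gene, was the higher member, from 756, 664 and 582 to 1305, 1046 and 940.0 (log2 fold change 0.71, SE 0.19, limma adjusted p 0.036), and lost its call without negative siRNA replicate 2 or 3 or Wwtr1 siRNA replicate 1 or 2 (limma adjusted p 0.0872 to 0.141). With the replicate block described above 11 targets were lower and 2 higher, where 10.3% and 11% of all tested genes were.

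The CCN family of secreted matricellular proteins contains the most used Yap and Taz targets. Ccn2, also called connective tissue growth factor, was at 104083, 111609 and 134840 normalized counts with negative siRNA and 68613, 87455 and 102879 with Wwtr1 siRNA and was not called (log2 fold change -0.45, limma adjusted p 0.169). Under the block it was called (limma adjusted p 0.000781), as were Ccn1 (log2 fold change -0.35, limma adjusted p 0.116 without the block and 0.00202 with it) and Ccn5 (-0.45, limma adjusted p 0.0932 and 0.00397), so that 4 of the 5 tested members were lower and 1 higher. Ccn3 was the 1 member called without the block (20% of the list called, against 8.96% of all tested genes). It was at 14764, 14741 and 24288 normalized counts with negative siRNA and 7539, 6855 and 9589 with Wwtr1 siRNA (log2 fold change -1.14, SE 0.24, limma adjusted p 0.0124). Negative siRNA replicate 3 was far above the other controls, and the call was lost without negative siRNA replicate 3 or Wwtr1 siRNA replicate 1 or 2 (limma adjusted p 0.0505 to 0.0593). With Yap siRNA Ccn3 was at 10274, 10968 and 18194 normalized counts, and the difference from Wwtr1 siRNA was not called (log2 difference -0.68, limma adjusted p 0.103).

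Promoters of 14 of the 19 targets were in the table. GGAATG, searched on both strands, occurred in 5 of the 14 (35.7%), against 14.2% of all promoters. Ccn2 held 3 copies within the 200 bases before its start, shown here with the motif in capitals because the gene is the standard Tead target (GRCr8, chr1:22624615-22624814, minus strand). The table had no entry for Ankrd1.
Ccn2: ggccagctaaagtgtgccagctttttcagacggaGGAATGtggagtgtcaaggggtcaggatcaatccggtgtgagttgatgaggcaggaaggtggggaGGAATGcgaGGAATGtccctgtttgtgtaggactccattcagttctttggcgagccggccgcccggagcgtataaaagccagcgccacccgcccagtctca

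Among 21 genes of the Tead, Vgll and Hippo group, Mob1a and Tead2 were lower and Sav1 was higher (14.3% called, against 8.96% of all tested genes). Mob1a, a coactivator of the Lats kinases, went from 5211, 5489.7 and 5399 to 2769, 3369 and 3124 normalized counts (log2 fold change -0.80, SE 0.12, limma adjusted p 0.0023). Tead2 went from 2371, 1981 and 2088 to 1351, 1339.9 and 1446 (log2 fold change -0.63, SE 0.12, limma adjusted p 0.00784). Sav1, the scaffold of the upstream kinases, went from 2003, 1877 and 1816 to 2609.6, 2451 and 2415 (log2 fold change 0.39, SE 0.08, limma adjusted p 0.00859). All 3 were separated from the controls in each library. With the block 3 members of this group were lower and 3 higher.

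Of 44 collagens and matrix glycoproteins, 9 were higher with Wwtr1 siRNA and none was lower, against 5.0% higher over all tested genes, and the list median was 0.14. Col5a3, a chain of fibrillar collagen V, was at 5741, 4819 and 5438 normalized counts with negative siRNA and 12592, 14652 and 17774 with Wwtr1 siRNA (log2 fold change 1.48, SE 0.14, limma adjusted p 0.000158). Loxl4, a lysyl oxidase that cross-links collagen, went from 139.6, 222 and 156 to 405, 344 and 472 (log2 fold change 1.25, SE 0.18, limma adjusted p 0.00171). Fbn2, a fibrillin of developing microfibrils, went from 872, 845 and 707 to 1869.8, 1846 and 1964 (log2 fold change 1.23, SE 0.16, limma adjusted p 0.00107). These genes also exceeded their levels with Yap siRNA, by 1.30 (limma adjusted p 0.000431), 0.99 (0.00703) and 0.79 (0.0116) on the log2 scale. Col8a1 rose from 7025, 6133 and 7139 to 13444, 11504 and 16019 normalized counts (log2 fold change 1.00, SE 0.27, limma adjusted p 0.042). That call was lost without each negative siRNA replicate, Yap siRNA replicate 1 or 2, each Wwtr1 siRNA replicate or Yap+Wwtr1 siRNA replicate 2 (limma adjusted p 0.0529 to 0.123). The other higher members were Loxl3 (0.87), the laminin chain Lama4 (0.72), Col16a1 (0.55), Prelp (0.51) and the laminin chain Lamc1 (0.44). The call of Col16a1 was lost without negative siRNA replicate 3 or Wwtr1 siRNA replicate 2 or 3 (limma adjusted p 0.0761 to 0.0973), that of Lama4 without negative siRNA replicate 1 or 3 or Wwtr1 siRNA replicate 2 or 3 (limma adjusted p 0.0673 to 0.115) and that of Prelp without negative siRNA replicate 2 or 3 or Wwtr1 siRNA replicate 1 or 3 (limma adjusted p 0.101 to 0.126). Lamc1 lost its call without each negative siRNA replicate or each Wwtr1 siRNA replicate (limma adjusted p 0.0505 to 0.0947).

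The chains of collagen I, the main fibrillar collagen of scar, were not called. Col1a1 had a log2 fold change of 0.25 (limma adjusted p 0.406) and Col1a2 of -0.31 (limma adjusted p 0.195). Col1a2 was called lower under the block (limma adjusted p 0.0223), where 16 matrix genes were higher and 8 lower. P4ha2 is a subunit of the prolyl hydroxylase whose modification stabilizes the collagen triple helix. It fell from 5959, 6198 and 6324 to 2310.2, 2477 and 2878 normalized counts (log2 fold change -1.28, SE 0.18, limma adjusted p 0.00147), and at 8011, 7036 and 7205 with Yap siRNA it differed between both siRNAs by -1.54 (limma adjusted p 0.000767).

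Of 21 tested contractile genes of myofibroblasts 2 were higher and none was lower (9.52% called, against 8.96% of all tested genes). Cdh11, a cadherin of activated fibroblasts, rose from 8812, 8499 and 9016 to 12429, 12172 and 13078 normalized counts (log2 fold change 0.52, SE 0.09, limma adjusted p 0.00395). Mylk, myosin light chain kinase, rose from 9063, 8272 and 8408 to 11152, 12466 and 12453 (log2 fold change 0.49, SE 0.08, limma adjusted p 0.00324). The list median was 0.07, and with the block 6 members were higher and 4 lower. Among 28 proteases and inhibitors, the membrane-type metalloprotease Mmp16 rose from 663, 685 and 574 to 1406, 1383 and 1408 (log2 fold change 1.13, SE 0.12, limma adjusted p 0.000358). Adamts9 was higher (0.55 on the log2 scale, limma adjusted p 0.0178) and Serpine2, an inhibitor of thrombin and plasminogen activators, lower (-0.72, limma adjusted p 0.0379). The call of Adamts9 was lost without negative siRNA replicate 3 or each Wwtr1 siRNA replicate (limma adjusted p 0.0528 to 0.0603) and that of Serpine2 without each negative siRNA replicate, each Yap siRNA replicate or each Wwtr1 siRNA replicate (limma adjusted p 0.0503 to 0.135). With 2 higher and 1 lower, 10.7% of the list was called where 8.96% of all tested genes were. The block called 6 proteases and inhibitors higher and 9 lower.

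Among genes whose mean reached 100 normalized counts, the largest rise outside the interferon list was that of Vgf. Vgf, a secreted neuropeptide precursor, was at 21.5, 31.0 and 46.5 normalized counts with negative siRNA and 154, 334 and 587 with Wwtr1 siRNA. Every treated library was above every control, with a wide spread among the treated ones (log2 fold change 3.27, SE 0.63, limma adjusted p 0.00787). Rundc3a went from 92.4, 54.0 and 86.8 to 349.5, 455 and 501 (log2 fold change 2.49, SE 0.34, limma adjusted p 0.0013). Syn1, the synaptic vesicle protein synapsin I, went from 92.4, 52.0 and 77.5 to 254, 310.2 and 383 (log2 fold change 2.1, SE 0.29, limma adjusted p 0.0013). Unc13a, which primes synaptic vesicles for release, went from 124, 232 and 156 to 569, 692 and 708 (log2 fold change 1.98, SE 0.27, limma adjusted p 0.00135). With Yap siRNA Rundc3a was at 94.3, 112 and 57.6 normalized counts and Syn1 at 86.1, 68.5 and 108, overlapping the controls in both genes.

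Ptprn, a membrane protein of dense-core vesicles, rose from 981, 1134 and 1037 to 2939, 4248 and 4391 normalized counts (log2 fold change 1.86, SE 0.28, limma adjusted p 0.00228). Celf3, a neuronal RNA-binding protein that regulates splicing, rose from 70.8, 72.0 and 92.0 to 234, 321 and 247 (log2 fold change 1.76, SE 0.21, limma adjusted p 0.000811). Cend1, which is linked to cell cycle exit of neurons, rose from 41.0, 77.0 and 70.3 to 206, 254 and 284 (log2 fold change 2.00, SE 0.44, limma adjusted p 0.016), and it was higher with Yap siRNA too, at 377, 296 and 441 (log2 fold change 2.58, limma adjusted p 0.00955). The call of Cend1 was lost without negative siRNA replicate 1 or Wwtr1 siRNA replicate 2 or 3 (limma adjusted p 0.0524 to 0.0638). Most of the genes just named are on no list. Of the 12 tested genes of the neuronal and secretory granule list, 2 were higher (Vgf and Celf3) and 1, the tubulin Tubb3, was lower (-0.72 on the log2 scale, limma adjusted p 0.0108). So 25% were called, against 8.96% of all tested genes. The list median was 0.36, with 10 members above 0, and with the block 4 were higher and 1 lower.

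In other large rises the treated libraries stood in the order of the interferon list. Xdh, xanthine dehydrogenase, was at 139.6, 91.0 and 52.7 normalized counts with negative siRNA and 799, 494 and 228 with Wwtr1 siRNA (log2 fold change 2.34, SE 0.54, limma adjusted p 0.0199). MGC108823 went from 218, 277 and 134 to 1773, 1227 and 474 (log2 fold change 2.32, SE 0.46, limma adjusted p 0.00879), MGC105567 from 98.5, 114 and 75.4 to 795, 661 and 289 (log2 fold change 2.48, SE 0.35, limma adjusted p 0.00157) and Tmem106a from 325, 359 and 321 to 1743, 1332 and 777 (log2 fold change 1.86, SE 0.29, limma adjusted p 0.00276). In each of the 4 genes Wwtr1 siRNA replicate 1 was highest and replicate 3 lowest, as in the summed interferon list. Whether they belong to that response was not tested. With Yap siRNA Xdh, MGC108823 and MGC105567 were called higher too (log2 fold change 3.01, 2.35 and 1.91, limma adjusted p 0.012, 0.0159 and 0.0136). Tmem106a was not (1.01, limma adjusted p 0.0772). In none of the 4 genes was the difference between both siRNAs called (limma adjusted p 0.495, 0.984, 0.352 and 0.0972 in the same order). Lrrc4, a postsynaptic adhesion protein, was scarce, at 3.08, 3 and 6.2 with negative siRNA and 57.4, 42.9 and 30.5 with Wwtr1 siRNA (log2 fold change 3.14, SE 0.49, limma adjusted p 0.00259). Lrrc4 was higher with Yap siRNA too (log2 fold change 2.37, limma adjusted p 0.0213), and values reached 399, 419 and 780.1 in the double knockdown. Kcnk3, a background potassium channel, went from 92.4, 65.0 and 37.2 to 174, 185 and 296 (log2 fold change 1.79, SE 0.39, limma adjusted p 0.0148). The call of Xdh was lost without negative siRNA replicate 2 or 3 or Wwtr1 siRNA replicate 1 or 2 (limma adjusted p 0.055 to 0.0872) and that of Kcnk3 without negative siRNA replicate 3 or Wwtr1 siRNA replicate 3 (limma adjusted p 0.056 to 0.0625).

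Sterol genes, P4ha2 and Wwtr1 itself made up part of the 12 largest falls above the same mean, and the others follow. Jam3, a junctional adhesion molecule, was at 1931, 2193 and 2469 normalized counts with negative siRNA and 767, 720.5 and 729.6 with Wwtr1 siRNA. The treated libraries were close together and well under the lowest control (log2 fold change -1.56, SE 0.10, limma adjusted p 2.61e-05). With Yap siRNA Jam3 was at 1932, 1589 and 1990.1, a difference of -1.31 (limma adjusted p 0.000131), while the double knockdown had 858, 882 and 878. Sphkap, an anchor of protein kinase A, went from 908, 917 and 909.5 to 399, 288 and 326 (log2 fold change -1.44, SE 0.17, limma adjusted p 0.000713). Gcnt2, a glycosyltransferase that branches polylactosamine chains, went from 835, 1072 and 1086 to 308, 334 and 442 (log2 fold change -1.47, SE 0.23, limma adjusted p 0.00249), and it was lower with Yap siRNA against the same controls (-1.14 on the log2 scale, limma adjusted p 0.0175). Enc1, an actin-binding kelch protein, went from 731, 843 and 837 to 287, 362 and 256 (log2 fold change -1.42, SE 0.27, limma adjusted p 0.00682). Fam210b, a mitochondrial protein, went from 417, 219 and 220.1 to 125, 136 and 87.4 (log2 fold change -1.25, SE 0.33, limma adjusted p 0.0356), with negative siRNA replicate 1 high among the controls. Its call was lost without each negative siRNA replicate or each Wwtr1 siRNA replicate (limma adjusted p 0.0509 to 0.127).

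Alox12, the lipoxygenase that forms 12-HETE from arachidonic acid, fell from 226, 219 and 235 to 39.7, 69.4 and 86.4 normalized counts (log2 fold change -1.85, SE 0.40, limma adjusted p 0.014). The controls were tight, the treated libraries spread more widely, and the mean fell by 71.2%. The call was lost without negative siRNA replicate 3 or Wwtr1 siRNA replicate 1 (limma adjusted p 0.0538 to 0.0612). With Yap siRNA Alox12 was at 101, 75.0 and 96.4, under every control, and was not called (log2 fold change -1.32, limma adjusted p 0.0892). The difference between both siRNAs was not called either (log2 difference -0.53, limma adjusted p 0.456). Alox12 was the 1 called member of 19 genes of eicosanoid synthesis (5.26% called, against 8.96% of all tested genes). Under the block 5 of them were lower and 3 higher.

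Itgal, an integrin chain of leukocytes, also fell steeply, from 1230.4, 662 and 1067 to 318, 353 and 416 normalized counts (log2 fold change -1.40, SE 0.27, limma adjusted p 0.00723). Its groups did not overlap. All 15 tested macrophage markers had a log2 fold change below 0 (median -0.75) and none was called. Lyz2, lysozyme, was at 14275, 10644 and 9893 normalized counts with negative siRNA and 4278, 8572 and 7195 with Wwtr1 siRNA (log2 fold change -0.84, limma adjusted p 0.389). Cd68, a lysosomal protein of macrophages, was at 4758, 3255 and 2839 in controls and 2519.9, 3424 and 2766 after depletion, with overlapping groups (limma adjusted p 0.753). Under the replicate block 11 macrophage markers were lower and none higher, Lyz2 among them (limma adjusted p 0.0284). The summed level of the 15 markers was 28315 to 40398 in controls and 15312 to 24658 after depletion, and its part in the fall of Itgal was not tested.

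Genes of DNA replication lay below the controls as a group, but 35 did not pass the test. All 38 tested members had a log2 fold change below 0, with a median of -0.38, and 3 were called lower (7.89%, against 3.96% of all tested genes). Dut, which clears dUTP, fell from 801, 799 and 864 to 513, 487 and 486 normalized counts (log2 fold change -0.73, SE 0.13, limma adjusted p 0.00596). Tyms, thymidylate synthase, fell from 708, 799.7 and 933 to 515, 472 and 489 (log2 fold change -0.72, SE 0.14, limma adjusted p 0.00717). Mcm4, a subunit of the replicative helicase, fell from 3461, 3549.5 and 3174 to 2084, 2663 and 2625 (log2 fold change -0.47, SE 0.12, limma adjusted p 0.034), and its call was lost without each negative siRNA replicate or Wwtr1 siRNA replicate 1 or 2 (limma adjusted p 0.0542 to 0.131). Of 27 genes of mitosis none was called without the block, and all 27 were below 0 (median -0.33). Mki67, the proliferation antigen, was at 5788, 6552 and 5859 in controls and 3533, 3987 and 5058 after depletion, groups that did not overlap, with a limma adjusted p of 0.137. Prc1, a protein of the central spindle, was at 2960.5, 2799 and 3229.9 and then 2135, 2259 and 3046, with an overlap in 1 library (limma adjusted p 0.239). The replicate block, which called 10.3% of all tested genes lower, did so for 21 replication and 13 mitosis genes, Mki67 (limma adjusted p 0.00438) and Prc1 (0.022) included.

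Regulators of the cell cycle moved in both directions. Ccnd1, cyclin D1, rose from 3417, 2748 and 2544 to 6339, 5837 and 6256 normalized counts (log2 fold change 1.09, SE 0.11, limma adjusted p 0.000244). It was also higher than with Yap siRNA, at 4662, 4509.7 and 3879.6, by 0.50 on the log2 scale (limma adjusted p 0.0159). Cdkn2b, the CDK inhibitor p15, rose from 1254, 998 and 953 to 2085, 1591 and 1686 (log2 fold change 0.74, SE 0.17, limma adjusted p 0.0212), a call lost without negative siRNA replicate 2 or 3 or Wwtr1 siRNA replicate 1 (limma adjusted p 0.0709 to 0.0938). Gadd45g fell from 1698, 1655 and 1869.7 to 1121, 1089.9 and 923 (log2 fold change -0.74, SE 0.15, limma adjusted p 0.0104). In all, 4 of 23 genes of this list were higher and 2 lower, or 26.1% called where 8.96% of all tested genes were. With the block 4 were higher and 5 lower.

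Of 32 genes of Wnt signalling, which controls fate and growth of many cells, 5 were higher and 2 lower (21.9% called, against 8.96% of all tested genes). Nkd1, a feedback inhibitor of Wnt signalling, rose from 414, 463 and 545 to 896, 1060.3 and 1135 normalized counts (log2 fold change 1.12, SE 0.15, limma adjusted p 0.0013). The ligand Wnt16 was listed at 5.13, 0 and 0 in controls and at 18.8, 28.6 and 17.3 with Wwtr1 siRNA (limma adjusted p 0.00937). Rspo3, an amplifier of Wnt signalling, and Sfrp4, a decoy receptor, were higher by 1.66 and 0.97 on the log2 scale (limma adjusted p 0.04 and 0.0316). The call of Sfrp4 was lost without negative siRNA replicate 1 or 2 or each Wwtr1 siRNA replicate (limma adjusted p 0.0662 to 0.11) and that of Rspo3 without negative siRNA replicate 2 or 3, Yap siRNA replicate 3, each Wwtr1 siRNA replicate or Yap+Wwtr1 siRNA replicate 2 (limma adjusted p 0.0528 to 0.153). The remaining higher member was the receptor Ror2 (0.42, limma adjusted p 0.00605). The lower members were the receptor Fzd4 (-0.71, limma adjusted p 0.0387) and Ctnnb1, the gene of beta-catenin (-0.36, limma adjusted p 0.00879). Fzd4 lost its call without each negative siRNA replicate, Yap siRNA replicate 2 or Wwtr1 siRNA replicate 1 or 2 (limma adjusted p 0.0555 to 0.148). With the block 7 Wnt genes were higher and 5 lower.

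Of 41 genes of Tgf-beta and Bmp signalling 3 were higher and 1 lower, a share of 9.76% and close to the 8.96% of all tested genes. Smad3, a mediator of Tgf-beta signals, rose from 1689, 1835 and 1664 to 2828, 2613 and 2915 normalized counts (log2 fold change 0.69, SE 0.08, limma adjusted p 0.000655), while the related Smad2 went from 2274, 2543 and 2474 to 2053, 1933 and 1910.4 (log2 fold change -0.31, SE 0.07, limma adjusted p 0.0233). Fst, the activin antagonist follistatin, rose from 701, 465 and 618 to 1163, 799 and 1425 (log2 fold change 0.90, SE 0.25, limma adjusted p 0.0449). Gdf10 was scarce, listed at 5.13, 0 and 3.1 in controls and 23.0, 18.4 and 12.2 after depletion, and its call was lost under the block (limma adjusted p 0.0368 and 0.0502). The call of Smad2 was lost without negative siRNA replicate 2 or 3 or Wwtr1 siRNA replicate 2 or 3 (limma adjusted p 0.0714 to 0.0891), that of Fst without each negative siRNA replicate, Yap siRNA replicate 1 or Wwtr1 siRNA replicate 1 or 3 (limma adjusted p 0.0577 to 0.148) and that of Gdf10 without negative siRNA replicate 2 or 3, each Wwtr1 siRNA replicate or Yap+Wwtr1 siRNA replicate 2 (limma adjusted p 0.0565 to 0.127). In the blocked fit 8 members were higher and 5 lower.

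Among 38 growth factors and receptors, Hgf, hepatocyte growth factor, rose from 179, 177 and 109.6 to 317, 408 and 472 normalized counts (log2 fold change 1.37, SE 0.21, limma adjusted p 0.00217). Yap depletion gave 391, 489 and 381, and the log2 difference between both siRNAs of -0.09 (SE 0.21) was not called (limma adjusted p 0.843). Fgfr3 fell from 2375, 2165 and 2410.3 to 928, 1028 and 1400.3 (log2 fold change -1.07, SE 0.22, limma adjusted p 0.0118). Ednra, the endothelin A receptor, rose from 554, 437 and 321 to 985, 738 and 766 (log2 fold change 0.94, SE 0.21, limma adjusted p 0.0166), and Fgf1 from 116, 72.0 and 94.1 to 211, 158 and 139 (log2 fold change 0.85, SE 0.23, limma adjusted p 0.0381). In all, 4 members were higher and 1 lower (13.2% called, against 8.96% of all tested genes). The call of Fgfr3 was lost without Wwtr1 siRNA replicate 1 or 2 (limma adjusted p 0.0516 to 0.0554), that of Ednra without negative siRNA replicate 3 or Wwtr1 siRNA replicate 1 (limma adjusted p 0.0665 to 0.0751) and that of Fgf1 without negative siRNA replicate 2 or 3, Wwtr1 siRNA replicate 1 or 2 or Yap+Wwtr1 siRNA replicate 2 (limma adjusted p 0.0521 to 0.154). In the blocked fit 9 were higher and 6 lower.

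Among 14 Notch genes (7.14% called, against 8.96% of all tested genes), Notch2 was higher (0.41 on the log2 scale, limma adjusted p 0.0413). Its call was lost without negative siRNA replicate 1 or 3, Yap siRNA replicate 3, each Wwtr1 siRNA replicate or Yap+Wwtr1 siRNA replicate 2 (limma adjusted p 0.0539 to 0.142). Notch3, at 17593, 16111 and 20416 normalized counts in controls and 22406, 24433 and 31288 after depletion, missed the threshold (limma adjusted p 0.0529), passed it under the block (0.000538) and differed from Yap siRNA by 1.25 (limma adjusted p 0.00093). In the blocked fit 2 Notch genes were higher and 3 lower. None of the 12 genes of insulin-like growth factors was called without the block (4 higher and 2 lower with it), with Igfbp7 at -0.13 and Igf2r at -0.08 on the log2 scale.

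Of 25 cytokines and chemokines 2 were higher and 2 lower, or 16% called where 8.96% of all tested genes were. Tnfrsf11b, osteoprotegerin, fell from 10521, 11506 and 10794 to 5853, 5519 and 6111 normalized counts (log2 fold change -0.91, SE 0.12, limma adjusted p 0.00122) and stood at 5280.5, 5556 and 6445 after Yap depletion. Lif, an interleukin 6 family cytokine, rose from 239, 344 and 282 to 453, 503 and 691 (log2 fold change 0.92, SE 0.24, limma adjusted p 0.0353). At 186, 296 and 173 with Yap siRNA it differed between both siRNAs by 1.34 (limma adjusted p 0.00675). Csf1 was lower (-0.30 on the log2 scale, limma adjusted p 0.0413), and the chemokine Cxcl13 was listed at 0, 3 and 0 in controls and 25.0, 10.2 and 5.08 after depletion (limma adjusted p 0.0204). The call of Lif was lost without negative siRNA replicate 1 or 3 or each Wwtr1 siRNA replicate (limma adjusted p 0.0532 to 0.121), that of Cxcl13 without negative siRNA replicate 1 or 3 or Wwtr1 siRNA replicate 1 or 2 (limma adjusted p 0.0611 to 0.0906) and that of Csf1 without each negative siRNA replicate, each Wwtr1 siRNA replicate or Yap+Wwtr1 siRNA replicate 1 or 2 (limma adjusted p 0.0517 to 0.141).

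Of 22 immediate early genes, the nuclear receptor Nr4a1 rose from 1192, 639 and 798 to 2046, 1718 and 1766 (log2 fold change 1.12, SE 0.19, limma adjusted p 0.004) and Jun, a subunit of AP-1, fell from 3589.5, 4172 and 3619.5 to 2380.1, 2786 and 3089 (log2 fold change -0.47, SE 0.11, limma adjusted p 0.0228). Nr4a3 was higher (0.55, limma adjusted p 0.0415). Jun lost its call without negative siRNA replicate 2 or 3 or Wwtr1 siRNA replicate 1 or 2 (limma adjusted p 0.0537 to 0.0942) and Nr4a3 without negative siRNA replicate 2 or 3, Yap siRNA replicate 3, each Wwtr1 siRNA replicate or Yap+Wwtr1 siRNA replicate 2 (limma adjusted p 0.0534 to 0.142). These 3 calls were 13.6% of the list, against 8.96% of all tested genes. The block called 5 immediate early genes higher and 3 lower.

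Of 22 genes of glycolysis 6 were lower (27.3%, against 3.96% of all tested genes) and none higher, with a median of -0.18. Eno2, an enolase, fell from 4029, 4459 and 3770.4 to 2204, 2233 and 2352 normalized counts (log2 fold change -0.85, SE 0.12, limma adjusted p 0.00157). Pgam1, phosphoglycerate mutase, fell from 13412, 13060.5 and 15273 to 9364, 8937 and 9667 (log2 fold change -0.58, SE 0.11, limma adjusted p 0.00669). Both were lower than with Yap siRNA too, by -0.99 and -0.54 on the log2 scale (limma adjusted p 0.000972 and 0.0112). Eno1 fell from 50845, 50484 and 57905 to 34558, 36744 and 40557 (log2 fold change -0.51, SE 0.11, limma adjusted p 0.012) and Pdk1, which restrains pyruvate dehydrogenase, from 681, 733 and 710.1 to 577, 464 and 528 (log2 fold change -0.44, SE 0.12, limma adjusted p 0.0361). The call of Eno1 was lost without negative siRNA replicate 3 or Wwtr1 siRNA replicate 1 or 2 (limma adjusted p 0.0504 to 0.0581) and that of Pdk1 without each negative siRNA replicate or Wwtr1 siRNA replicate 2 or 3 (limma adjusted p 0.0718 to 0.145). Of 26 genes of oxidative phosphorylation 11.5% were called, against 8.96% of all tested genes. Here 1 was higher (Cox5b, 0.35) and 2 were lower (Atp5f1c, -0.34, and Ndufs7, -0.29), calls lost without negative siRNA replicate 2 or Wwtr1 siRNA replicate 3 (limma adjusted p 0.0524 to 0.0628), without negative siRNA replicate 3 (limma adjusted p 0.0516) and without each negative siRNA replicate or each Wwtr1 siRNA replicate (limma adjusted p 0.0569 to 0.111), respectively.

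Of 25 genes of the integrated stress response 4 were higher and 1 lower (20% called, against 8.96% of all tested genes). Stc2, a secreted glycoprotein induced by stress, rose from 115, 104 and 142 to 242, 235 and 248 normalized counts (log2 fold change 1.01, SE 0.17, limma adjusted p 0.00442). Shmt2, of mitochondrial one-carbon metabolism, rose from 4991, 4854 and 5310.4 to 8326, 8885 and 9914 (log2 fold change 0.84, SE 0.11, limma adjusted p 0.00107). Trib3, a pseudokinase, rose from 1859, 2133 and 2278 to 3131, 3377 and 3343 (log2 fold change 0.66, SE 0.12, limma adjusted p 0.00599). Stc2 and Trib3 exceeded their level with Yap siRNA, by 1.05 and 0.89 on the log2 scale (limma adjusted p 0.00463 and 0.00159). Vldlr, a lipoprotein receptor, was the lower member (-0.65 on the log2 scale, limma adjusted p 0.00256). Ddit3, the factor CHOP, went from 1766, 1714 and 1677 to 4222, 2603 and 2279 (log2 fold change 0.77, SE 0.21, limma adjusted p 0.0382), with replicate 1 far above the others. The call was lost without each negative siRNA replicate, Yap siRNA replicate 2, Wwtr1 siRNA replicate 1 or 2 or Yap+Wwtr1 siRNA replicate 2 (limma adjusted p 0.0529 to 0.113). With the block 6 members were higher and 2 lower. None of 15 genes of the unfolded protein response was called without the block, and 3 were higher and 4 lower with it, Hsp90b1 among the higher ones (0.17 on the log2 scale, limma adjusted p 0.182 without the block and 0.0381 with it). Calr, at 0.11, was called in neither fit.

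Among 26 transcription factors of cardiac fibroblasts, Gata6 and Gata4 were lower and Twist1 and Nr2f2 higher (15.4% called, against 8.96% of all tested genes). Gata4 went from 8674, 7759 and 8458 to 6558, 6903 and 6829 normalized counts (log2 fold change -0.29, SE 0.06, limma adjusted p 0.0134), and at 9481, 9428 and 10009 with Yap siRNA the difference between both siRNAs was -0.51 (limma adjusted p 0.000982). Gata6 went from 5000.5, 4734 and 5123 to 3776, 3929.9 and 4208 (log2 fold change -0.32, SE 0.07, limma adjusted p 0.0128). These falls were small but separated the groups. Twist1 and Nr2f2 changed by 0.44 and 0.40 on the log2 scale (limma adjusted p 0.0242 and 0.0483). The call of Gata4 was lost without negative siRNA replicate 1 or 3 or Wwtr1 siRNA replicate 1 (limma adjusted p 0.0563 to 0.0591), that of Gata6 without negative siRNA replicate 3 or Wwtr1 siRNA replicate 1 or 2 (limma adjusted p 0.0546 to 0.0601), that of Twist1 without each negative siRNA replicate or Wwtr1 siRNA replicate 1 or 3 (limma adjusted p 0.0512 to 0.0838) and that of Nr2f2 without each negative siRNA replicate, Yap siRNA replicate 1, each Wwtr1 siRNA replicate or Yap+Wwtr1 siRNA replicate 1 or 2 (limma adjusted p 0.0526 to 0.18). With the block 6 of these factors were higher and 4 lower.

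Markers of the cell types that a culture from ventricles could hold were examined next. Without the block none of the 12 fibroblast, 15 cardiomyocyte, 7 mesothelial, 7 mural cell and 5 Schwann cell markers passed the test, with list medians of 0.05, 0.24, -0.15, -0.0018 and -0.14. Among their most abundant members, Tnnt2 and Myh6 of cardiomyocytes were at -0.33 and 0.73 on the log2 scale, Wt1 and Msln of mesothelium at -0.15 and -0.29, Mcam of mural cells at -0.10 and Ncam1 of Schwann cells at -0.06. The block called 4 fibroblast markers higher and 4 lower, 7 cardiomyocyte markers higher and 2 lower, 1 mesothelial and 2 mural cell markers higher and no Schwann cell marker. Tnnt2 and Myh6 were among those called (limma adjusted p 0.0192 and 6.43e-05). Of 12 endothelial markers 1 was higher (8.33% called, against 8.96% of all tested genes). This was Tek, the receptor of angiopoietins, from 479, 454 and 285 to 735, 645 and 571 normalized counts (log2 fold change 0.71, SE 0.18, limma adjusted p 0.03). That call was lost without negative siRNA replicate 3 or Wwtr1 siRNA replicate 1 or 2 (limma adjusted p 0.0708 to 0.118), and with the block 3 endothelial markers were higher. The endothelial list summed to 4740 to 5213 normalized counts in controls and 6008 to 6382 after depletion.

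Wwtr1 and Yap siRNA were compared directly to find where the paralogs differ. Between both groups 1044 of the 11871 genes differed (8.79%), 501 higher and 543 lower with Wwtr1 siRNA. Without Yap siRNA replicate 1 or 2 the count was 513 and 575, and without Wwtr1 siRNA replicate 1, 2 or 3 it was 669, 434 and 496. With the replicate block it was 1253 over all libraries and 2680 with the double knockdown left out as well. Of the 970 genes called for Wwtr1 siRNA outside the interferon list, 440 also differed from Yap siRNA in the same direction, 176 higher and 264 lower. Both contrasts use the same Wwtr1 siRNA libraries, so agreement in direction is partly built in. With Yap siRNA against negative siRNA, 172 of the 970 were called in the same direction and 8 in the opposite one. Rundc3a differed by 2.33 (limma adjusted p 0.00246), Syn1 by 1.84 (0.00351), Vgf by 3.84 (0.00439) and Celf3 by 2.57 (0.000136) on the log2 scale. Rasgrp2, an exchange factor for Rap1, was at 209, 209 and 336 normalized counts in controls, 158, 164 and 151 after Yap depletion and 438, 553 and 826 after Wwtr1 depletion. It differed between both siRNAs by 1.89 (limma adjusted p 0.00488), and its call against negative siRNA (1.25, limma adjusted p 0.0305) was lost without negative siRNA replicate 1 or 2 or Wwtr1 siRNA replicate 2 or 3 (limma adjusted p 0.0818 to 0.103).

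On the lower side, Sphkap differed from Yap siRNA by -1.38 (limma adjusted p 0.00093). Padi3, which converts arginine to citrulline in proteins, was at 109, 102 and 107 normalized counts in controls, 256, 241 and 334 after Yap depletion and 69.9, 59.2 and 72.1 after Wwtr1 depletion. It was higher than the controls with Yap siRNA (log2 fold change 1.36, limma adjusted p 0.00393) and lower with Wwtr1 siRNA (-0.66, limma adjusted p 0.0472), and both siRNAs differed by -2.02 (limma adjusted p 0.00026). Arhgef19, a guanine nucleotide exchange factor, was at 215, 164 and 250.1 normalized counts in controls, 293, 244 and 314 after Yap depletion and 87.6, 105 and 144 after Wwtr1 depletion and differed by -1.35 (limma adjusted p 0.00575). Against negative siRNA Arhgef19 changed by -0.90 on the log2 scale (limma adjusted p 0.0337), a call lost without negative siRNA replicate 1 or 3 or Wwtr1 siRNA replicate 1 or 2 (limma adjusted p 0.0948 to 0.13). The call of Padi3 against negative siRNA was lost without each negative siRNA replicate, Yap siRNA replicate 1 or 2, each Wwtr1 siRNA replicate or Yap+Wwtr1 siRNA replicate 1 or 2 (limma adjusted p 0.0505 to 0.16).

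**Figure D5:**
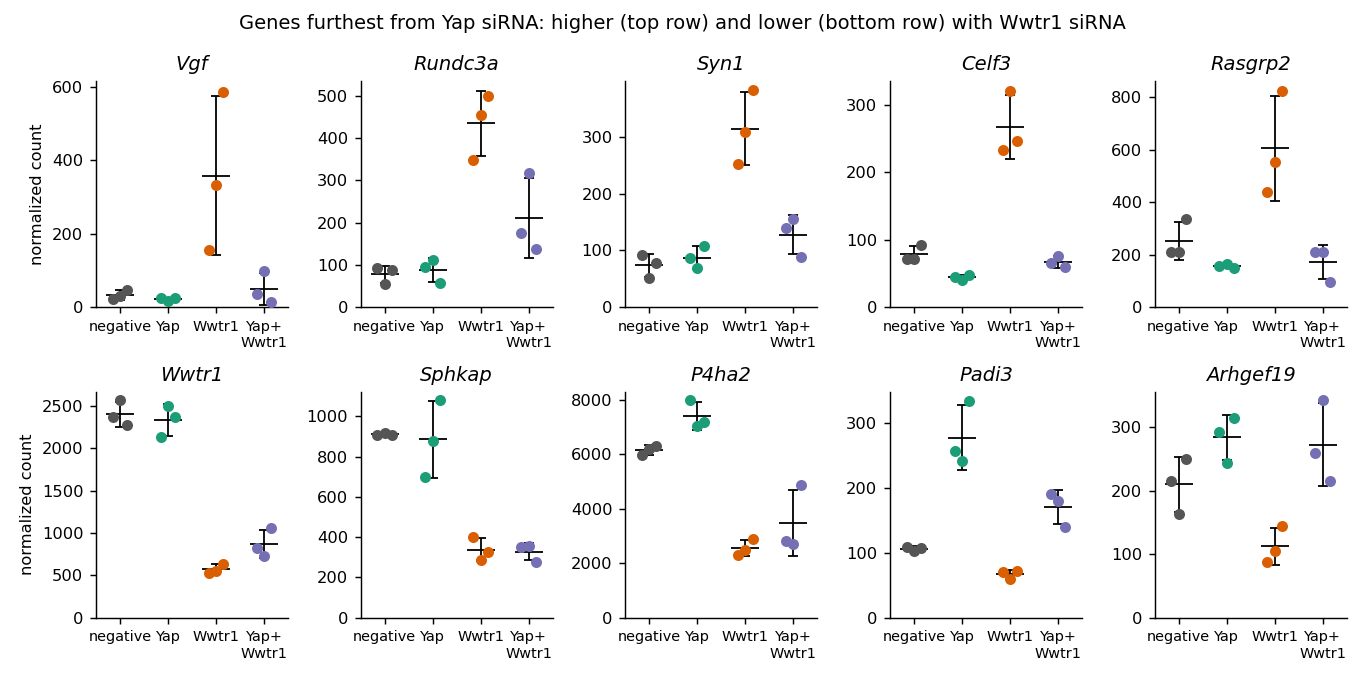
Normalized counts (linear axis from 0) in the 12 libraries for the 5 genes that most exceeded and the 5 that most fell short of Yap siRNA among genes called for Wwtr1 siRNA. Points are libraries and bars the mean and SD of 3. Vgf, Rundc3a, Syn1, Celf3 and Rasgrp2 are high with Wwtr1 siRNA alone and lower again in the double knockdown, and Padi3 is high with Yap siRNA.

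Some of these rises were present in the double knockdown and others were not. Rundc3a was at 175, 319 and 139 normalized counts there (log2 fold change against negative siRNA 1.37, limma adjusted p 0.00876), and Unc13a (1.28, limma adjusted p 0.00407), Ptprn (1.42, limma adjusted p 0.00252) and Cend1 (2.21, limma adjusted p 0.00279) were higher as well. Syn1 missed the threshold (0.78, limma adjusted p 0.0547). Vgf was at 35.8, 97.0 and 14.0 normalized counts there, Celf3 at 64.6, 76.1 and 59.7 and Rasgrp2 at 209, 212 and 95.6, none of them called against negative siRNA (limma adjusted p 0.82, 0.452 and 0.172). Wwtr1 itself was at 818, 731 and 1056 in those libraries, somewhat above its level with Wwtr1 siRNA alone. The falls were mixed in the same way. Hmgcs1, Msmo1 and Jam3 were lower there, at log2 fold changes of -1.70, -1.87 and -1.32 (limma adjusted p 8.52e-06, 1.05e-05 and 9.99e-06). Enc1 (0.18, limma adjusted p 0.645), Fam210b (-0.59, 0.188), Nt5e (0.12, 0.577), Arhgef19 (0.37, 0.251) and Gata4 (0.00, 0.966) were not called. Padi3 was higher (0.66, limma adjusted p 0.017).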

How the data were processed

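RNA sequencing libraries of 4 groups with 3 replicates each were used. Per the study's methods, the authors trimmed reads with Trim Galore 0.6.5, aligned them to rn6 with HISAT2, assembled and counted transcripts with StringTie and normalized the counts with DESeq2. The deposited table holds these normalized counts, a signal in which each library's whole reads are divided by its size factor. The count of reads behind each value could be recovered, since all 147252 values were whole multiples of the library's unit within 0.01 read, with totals of 33.9 to 41.1 M. The unit itself could be a multiple of 1 read. Whether counting used strand is not given in the sources used here, and reads of near-identical family members may be shared between them. Of 12271 listed genes, 6 had a 0 in 1 library with more than 100 in both other replicates, so a listed 0 can be a failed estimate. The authors' deposited fold changes and p-values were not used.

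Values were taken as log2(normalized count + 1), genes with a mean of at least 10 were kept, and limma 3.58.1 (R 4.3.3) with a mean-variance trend was fitted to all 12 libraries without covariates. Benjamini-Hochberg adjustment ran over 11871 genes at a threshold of 0.05, and limma's adjusted p is meant throughout. The members and gene lists were chosen with earlier results of these data known, and gene lists are described by counts and medians only. Named genes were Wwtr1, Yap1, Hmgcs1, Ankrd1 and Alox12, then the 12 largest rises and falls outside the interferon list with a mean of at least 100, then up to 4 called members of each list (every called member of the sterol synthesis, sterol regulation, Yap and Taz target and CCN lists, or the 2 most abundant members where none was called), and the 5 largest differences from Yap siRNA in each direction. Pmvk, Ggps1, Ccn1, Ccn2, Ccn5, Mctp2, Nr0b2, Acly, Lamc1, Prelp, Col16a1, Lama4, Loxl3, Stat3, Ifngr1, Fzd4, Ctnnb1, Ror2, Vldlr and Tubb3 were named after their values were seen where that rule does not reach them. Some genes that the rule names are not reported here.

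Replicate numbers of the labels were checked as pairs. Same-numbered libraries deviated together over the tested genes, with a correlation of 0.117 to 0.213 between negative and Wwtr1 siRNA. Over the 5000 most abundant genes the lowest was 0.0885, under the 0.399 of negative siRNA replicate 2 with Wwtr1 siRNA replicate 1. The study gives separate litters, but the labels do not say that equal numbers share a litter. A fit with the number as a block was therefore made, once with all libraries and once without the double knockdown. Alternatives were another pseudocount (0.1 or 10), another filter, scaling by TMM or the upper quartile, a count test of the recovered reads in edgeR 4.0.16 or in DESeq2 1.42.0, no trend, only the compared groups, and each library left out. Replicates of a group differed far beyond counting noise (chi-square per gene 20.0 to 50.4). All scripts for tests were tested on simulated data. Promoter sequences came from RefSeq, build GRCr8. The files' build differs, and no coordinates were taken from the files.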

Additional observations from a re-analysis of the deposited data

How the results depend on the processing

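The fall of Wwtr1 and the number of lower sterol synthesis genes stayed within the limits set (same side of the threshold, or within 1.5 times the count) under every alternative tried. Of the 114 called named genes none reversed under any alternative. Calls lost among them numbered 16 without the mean-variance trend, 10 with only the compared groups, 3 each with a pseudocount of 10, upper-quartile scaling, edgeR and the replicate block, and 1 or none under the others. All 12 leave-one-out fits kept 69 of the 114. DESeq2 on the recovered reads called 1545 genes.

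The replicate block, built from the replicate numbers of the labels, called 1322 genes with all libraries. Without the double knockdown it called 2527, 2404 of them outside the interferon list. Between Wwtr1 and Yap siRNA it called 1253 and 2680, respectively. Among the 19 named genes not called otherwise it gave a call to 3 with all libraries and to 8 without the double knockdown. It took a call from 3 and from 1 (Gdf10) in turn. Leaving out 1 library gave 548 to 1419 genes for Wwtr1 against negative siRNA, 484 to 1320 outside the interferon list and 434 to 1409 against Yap siRNA. The cause of these shifts was not tested.

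Directions turned only for genes near 0 and not called. Ggps1 was at -0.00724 with upper-quartile scaling. Over the leave-one-out fits the log2 fold change ran from -0.035 to 0.044 for Ggps1, from -0.097 to 0.073 for Yap1, from -0.30 to 0.13 for Mcam and from -0.24 to 0.10 for Ncam1. Genes such as Cxcl13, Wnt16 and Gdf10 rest on a few counts per control library, and the part of depth in their spread was not tested.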
